A study of Mus musculus with 50 samples.

Results

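The 10 genes described here encode enzymes through which activated macrophages make itaconate, nitric oxide, polyamines and prostaglandins and make or remove reactive oxygen, followed across 50 RNA sequencing libraries of RAW264.7 cells, a transformed mouse macrophage line. They were Acod1, Nos2, Arg1, Ass1, Gch1, Sod2, Ptgs2, Ptges, Odc1 and Cybb, taken by symbol from among the 55416 genes of the deposited tables. All 10 were present. The lines had been edited with CRISPR and were labelled SGK1 KO, SGK3 KO, SGK1/SGK3 double KO, or WT with an empty vector sgRNA. The labels name 1 line per genotype and do not say whether a line was 1 clone.

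Cells were stimulated for 2 h with 10 µg/mL DMXAA, which activates mouse STING, or left untreated, here called rest. A further group of WT cells was given the SGK inhibitor Sanofi-14h at 500 nM, starting 2 h ahead of DMXAA. A vehicle (DMSO) is mentioned in the labels, without saying which control libraries received it. Batch b1 held 5 libraries each of WT with Sanofi-14h and DMXAA, SGK3 KO with DMXAA, double KO with DMXAA and WT with DMXAA, and 3 each of SGK3 KO and WT at rest. Batch b2 held 4 libraries of SGK1 KO with DMXAA, 3 of double KO with DMXAA, 4 of WT with DMXAA, and 3 each of SGK1 KO, double KO and WT at rest. Batch b3 held 4 libraries marked as reruns, which entered the comparisons only as an alternative.

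Acod1 encodes the mitochondrial decarboxylase that makes itaconate from cis-aconitate, and is among the genes most strongly induced in activated macrophages. Nos2 (inducible nitric oxide synthase) and Arg1 (arginase) compete for arginine, Ass1 returns citrulline to the arginine pool, and Odc1 (ornithine decarboxylase) starts polyamine synthesis from ornithine. Gch1 is the first and rate-limiting enzyme of tetrahydrobiopterin synthesis, the cofactor that nitric oxide synthases need. Ptgs2 (cyclooxygenase-2) makes prostaglandin H2, which Ptges converts to prostaglandin E2. Cybb is the catalytic, membrane-bound subunit of the phagocyte NADPH oxidase that makes superoxide, and Sod2 removes superoxide in mitochondria. STING, the sensor that DMXAA engages, acts through TBK1, IRF3 and NF-kB, and the SGK kinases are relatives of AKT downstream of PI3K.

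The promoters of the 4 genes on which the results turn most are shown, because 3 of them rose with DMXAA and the fourth, Ptgs2, was lower in the edited lines. Each is the 250 bases before the gene start in RefSeq on GRCm38.p6, 5' to 3' on the strand of the gene. RefSeq promoters were matched for 8 of the 10 genes, with Nos2 and Arg1 not matched. Capitals mark matches to the motifs searched on both strands, which were chosen after the sequences had been seen.
Acod1: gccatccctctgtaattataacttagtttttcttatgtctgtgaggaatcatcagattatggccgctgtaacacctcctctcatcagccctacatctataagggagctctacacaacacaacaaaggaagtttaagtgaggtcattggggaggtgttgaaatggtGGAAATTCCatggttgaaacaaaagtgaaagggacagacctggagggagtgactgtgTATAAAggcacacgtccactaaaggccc
Gch1: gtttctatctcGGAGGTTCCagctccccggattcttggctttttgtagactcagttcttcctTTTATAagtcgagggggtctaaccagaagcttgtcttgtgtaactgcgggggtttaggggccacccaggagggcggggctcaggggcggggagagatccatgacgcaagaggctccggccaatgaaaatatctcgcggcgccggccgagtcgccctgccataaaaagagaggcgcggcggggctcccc
Cybb: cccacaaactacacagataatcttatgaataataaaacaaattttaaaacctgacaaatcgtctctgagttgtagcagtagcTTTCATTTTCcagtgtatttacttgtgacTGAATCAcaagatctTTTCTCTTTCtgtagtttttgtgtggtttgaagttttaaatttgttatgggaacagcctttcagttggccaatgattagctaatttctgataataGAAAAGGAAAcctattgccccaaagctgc
Ptgs2: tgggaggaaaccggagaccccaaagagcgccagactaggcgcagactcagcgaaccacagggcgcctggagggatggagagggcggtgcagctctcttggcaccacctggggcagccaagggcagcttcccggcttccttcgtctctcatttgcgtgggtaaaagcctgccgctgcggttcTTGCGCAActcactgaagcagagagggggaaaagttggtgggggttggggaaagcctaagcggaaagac

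The Acod1 window (chr14:103046762-103047011, plus strand) holds the NF-kB motif GGANNTTCC at -85 to -77 and the TATA box TATAAA at -28 to -23, counted back from the gene start. The Gch1 window (chr14:47189414-47189663, minus strand) holds the NF-kB motif at -239 to -231 and TATAAA in reverse at -188 to -183. The Cybb window (chrX:9469325-9469574, minus strand) holds 3 matches of the interferon-stimulated response element (GAAA, any 2 bases, GAAA), at -168 to -159, -124 to -115 and -29 to -20, the first 2 in reverse. It also holds the AP-1 motif TGANTCA at -139 to -133. The Ptgs2 window (chr1:150099781-150100030, plus strand) holds the C/EBP motif TTGCNNAA at -69 to -62. Among 32851 RefSeq promoters of the same length, 3.59% held the NF-kB motif, 2.98% the response element, 6.75% the AP-1 motif, 9.56% the C/EBP motif and 12.4% the TATA box. None of the 4 windows held TGACGT, the first bases of the cyclic AMP response element, which 6.47% of promoters held. Bases after the gene start or further upstream were not searched, so this absence holds for the windows only. A match is a description of the letters and not of binding.

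Depth was 57859509 to 101068327 counts per library in b1 and 63461414 to 112007140 in b2. The line was checked by its markers: 8 macrophage genes summed to 6702 to 12688 CPM (counts scaled to library size, with TMM factors), while 20 markers of other cell types summed to 0.0624 to 1.92 CPM. Of the macrophage genes, Mertk was at 0 in 43 of 46 libraries. In b2 the macrophage sum was lower in the edited lines, at 6918 to 9542 CPM against 10594 to 12688 CPM in WT, and its part in the b2 results was not tested. The largest part of this sum was Lyz2 in every group. In SGK1 KO, 1 of 7 tested markers was higher and 2 lower than WT (adjusted p under 0.05), both at rest and with DMXAA (6.43% and 8.72% of all tested genes changed). In double KO none was higher, with 3 lower at rest and 4 with DMXAA (3.03% and 12.8%). Sgk1 with DMXAA in b2 was 4.17 ± 2.28 CPM in SGK1 KO (SD, n = 4) and 2.42 ± 0.66 CPM in double KO (n = 3), against 34.1 ± 6.3 CPM in WT (n = 4). Sgk3 was not lower at the RNA level in lines edited at it: in b1 with DMXAA it was 107 ± 6 CPM in SGK3 KO and 120 ± 1 CPM in double KO, against 102 ± 5 CPM in WT (n = 5 each). Sgk1 was also lower in b1 groups not labelled as edited at it. With DMXAA it was 22.1 ± 2.4 CPM in SGK3 KO and 11.7 ± 2.1 CPM in WT with Sanofi-14h (SD, n = 5 each). WT with DMXAA alone held 51.3 ± 3.2 CPM (n = 5). Gene counts do not read the edit itself, so the genotype of every edited line rests on the labels. Tnf rose with DMXAA, to 535 ± 27 CPM in WT with DMXAA against 36.5 ± 5.9 CPM at rest in b1. Replicates in b2 varied more than in b1, with a common biological coefficient of variation of 0.473 against 0.159, and 6 b2 libraries, all of edited lines, had counts that rose with gene length (slope over 0.1 log2 units per doubling). In 9 others counts fell with length by as much, among them 5 of the 7 WT libraries, so this trend moved with genotype. Its part in the b2 results was examined with the length trend removed from every library. Whether replicates came from separate cultures is not stated, so every p-value reflects no more than library-to-library spread, which may be technical.

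Per length, Cybb was the most abundant of the 10 transcripts, with group means of 408 to 540 TPM (a length-corrected abundance) in b1 and 462 to 778 TPM in b2. Odc1 followed with means of 181 to 211 TPM in b1 and 230 to 330 TPM in b2. Sod2 kept within 35.6 to 41.3 TPM in b1 and 39.8 to 44.5 TPM in b2. Acod1 spanned a wide range, with means of 2.27 TPM in WT at rest to 39.9 TPM in double KO with DMXAA in b1, and 1.59 TPM in SGK1 KO at rest to 58.5 TPM in double KO with DMXAA in b2. Gch1 lay between 10.6 and 20.3 TPM in b1 and between 8.28 and 14.5 TPM in b2. Below them, Ass1 means were 1.95 to 4.92 TPM and Ptgs2 means 0.609 to 5.06 TPM over both batches, so their ranges overlapped. Ptges (0.247 to 0.790 TPM) and Arg1 (0.0388 to 0.877 TPM) were lower and also overlapped, and Nos2 did not exceed a mean of 0.0637 TPM.

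**Figure D1:**
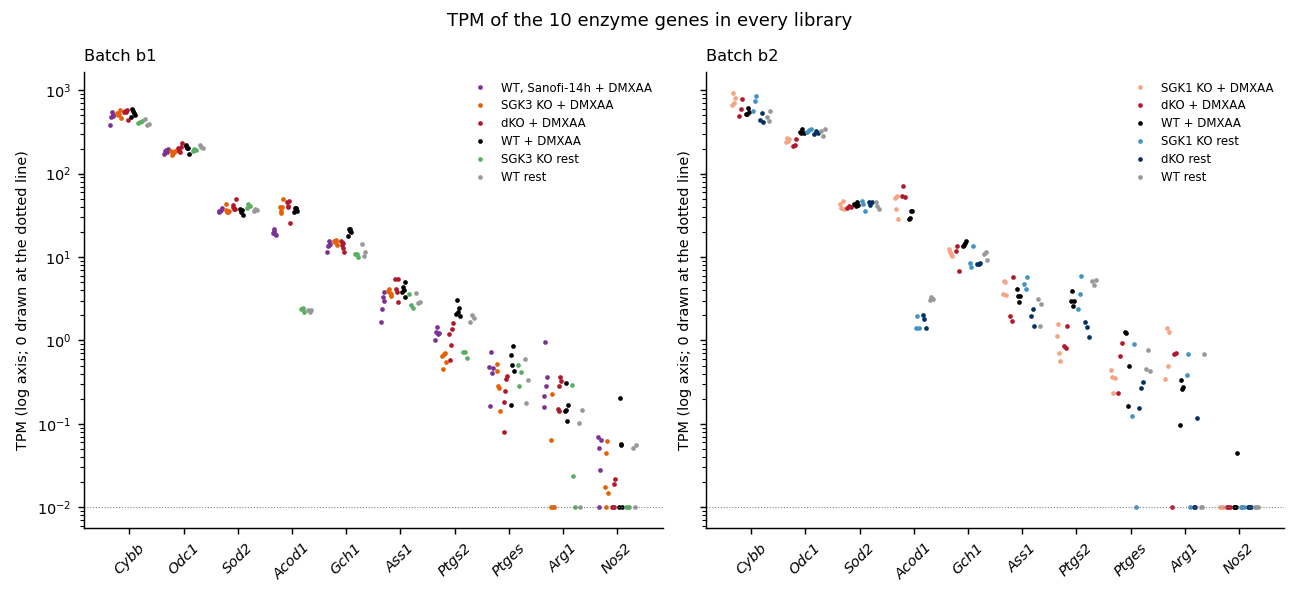
TPM of the 10 genes in every library of b1 (left) and b2 (right) on a log axis, 1 point per library and 1 colour per group, with values of 0 drawn at the dotted line. Acod1 is the gene whose libraries with DMXAA separate most from those at rest; Nos2 lies lowest, at 0 in 19 of 20 libraries of b2.

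Read against all tested genes (16947 in b1 and 16622 in b2, adjusted p under 0.05 in edgeR's quasi-likelihood test), the counts of enzyme genes that changed were as follows. The DMXAA response held 3 of 10 in WT in b1, where 35.3% of all tested genes changed, and 3 of 10 in SGK3 KO, where 30.1% did. In b2 the response held 3 of 9 tested in SGK1 KO (background 11.2%), 3 of 9 in double KO (6.76%) and 1 of 9 in WT (3.98%), Nos2 being untested there. Between genotypes with DMXAA, 2 of 10 differed in SGK3 KO (22.9%) and 3 of 10 in double KO in b1 (26.4%). In b2, 3 of 9 differed in SGK1 KO (8.72%) and 3 of 9 in double KO (12.8%). At rest the counts were 1 of 10 in SGK3 KO (10.4%), 1 of 9 in SGK1 KO (6.43%) and 2 of 9 in double KO (3.03%). Sanofi-14h changed 4 of 10, all lower (20.8%). Tests of a different DMXAA response found 0 of 10 for SGK3 KO against WT (1.04%), 1 of 9 for SGK1 KO (0.451%) and 2 of 9 for double KO (0.782%). For SGK3 KO, 0 of 10 also passed an unadjusted p of 0.05, and DESeq2 and limma called 0. In the b1 comparisons the share of the 10 genes that changed therefore lay near or below that of all genes, except for Sanofi-14h, where 4 of 10 stood against 20.8%.

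DMXAA raised Acod1 in every genotype, by 10.1 to 33.2-fold. In b1 with DMXAA it measured 59.3, 52.4, 56.5, 59.1 and 73.0 CPM in SGK3 KO and 52.3, 54.0, 53.8, 54.9 and 53.3 CPM in WT. At rest it measured 3.36, 3.48 and 3.04 CPM in SGK3 KO and 3.19, 3.08 and 3.22 CPM in WT. Every stimulated library stood above every resting one. The log2 fold change with DMXAA was 4.19 ± 0.17 in SGK3 KO (SE; adjusted p = 7.76e-16) and 4.08 ± 0.17 in WT (adjusted p = 6.49e-16). The difference of the responses, 0.10 ± 0.22, did not pass (adjusted p = 0.952). Double KO cells with DMXAA held 68.1, 61.7, 61.3, 67.1 and 36.7 CPM, 4 of 5 above all WT libraries and 1 below all of them. Their difference from WT, 0.14 ± 0.11, did not pass (adjusted p = 0.412). It was 0.27 with an adjusted p of 0.00322 without replicate 5, the library at 36.7 CPM. In these bulk libraries, fewer cells responding and less RNA per cell cannot be told apart.

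Pretreatment with Sanofi-14h gave a lower Acod1 level after DMXAA. The 5 pretreated WT libraries held 30.1, 32.8, 29.5, 27.8 and 26.6 CPM, against 52.3 to 54.9 CPM in WT with DMXAA alone. The groups did not overlap, and the mean was 29.4 ± 2.4 CPM with the inhibitor and 53.7 ± 1.0 CPM without it (SD, n = 5 each; log2 fold change -0.87 ± 0.11, adjusted p = 3.45e-06). Set beside it, SGK3 KO and double KO compared with the same WT libraries had Acod1 log2 fold changes of 0.16 ± 0.11 (adjusted p = 0.335) and 0.14 ± 0.11. These comparisons share their control samples. No library had the inhibitor without DMXAA, so the level at rest under the inhibitor is unknown.

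In b2 the Acod1 response was steeper in both edited lines than in WT. With DMXAA it measured 69.9, 45.5, 69.6 and 37.4 CPM in SGK1 KO, 74.6, 88.9 and 62.6 CPM in double KO, and 38.2, 41.4, 45.9 and 48.9 CPM in WT. At rest it measured 1.83, 2.35 and 1.52 CPM in SGK1 KO, 2.71, 2.2 and 1.87 CPM in double KO, and 4.12, 4.73 and 4.11 CPM in WT. Both edited lines lay below WT at rest with no overlap, and with DMXAA the double KO libraries lay above WT, while SGK1 KO overlapped WT. The response was 4.87 ± 0.24 in SGK1 KO (29.2-fold; adjusted p = 4.63e-11), 5.05 ± 0.25 in double KO (33.2-fold; adjusted p = 5.05e-11) and 3.33 ± 0.22 in WT (10.1-fold; adjusted p = 4.03e-09). The responses exceeded that of WT by 1.54 ± 0.29 log2 units in SGK1 KO (adjusted p = 0.0159) and by 1.72 ± 0.30 in double KO (adjusted p = 0.00583), in the test of the difference itself. The call for SGK1 KO ended without replicate 2 of resting WT (1.48, adjusted p = 0.0559) or replicate 3 of resting SGK1 KO (1.4, adjusted p = 0.0635).

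The same contrasts split by state show where the values lay. At rest, Acod1 was lower by -1.18 ± 0.23 log2 units in SGK1 KO than in WT (adjusted p = 0.00394) and by -0.93 ± 0.22 in double KO (adjusted p = 0.0223). With DMXAA it was higher in double KO by 0.79 ± 0.19 (adjusted p = 0.00819), and in SGK1 KO the difference of 0.35 ± 0.18 did not pass (adjusted p = 0.252). Without the libraries whose counts rose with gene length, that difference was 0.68 (adjusted p = 0.00188), and with the length trend removed from all libraries it was 0.38 (adjusted p = 0.157). The resting call in SGK1 KO ended when the groups were fitted alone (-1.18, adjusted p = 0.0800), as did that in double KO (-0.94, adjusted p = 0.0579), which also ended with limma (-0.60, adjusted p = 0.139). The resting call in double KO ended on leaving out replicate 2 or 3 of resting double KO or any of the 3 resting WT libraries (-0.97 to -0.81, adjusted p = 0.0514 to 0.138). Without replicate 2 of the stimulated double KO, the library at 88.9 CPM, the increase was 0.67 with an adjusted p of 0.0559. Adding the b3 reruns ended the calls of both different responses (adjusted p = 0.348 and 0.474), of the resting double KO (adjusted p = 0.146) and of the increase in double KO with DMXAA (0.50, adjusted p = 0.246). With a term for the batch these remained called. Double KO and WT with DMXAA were compared in both batches, and whether the 2 Acod1 differences themselves differ was not tested.

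**Figure D2:**
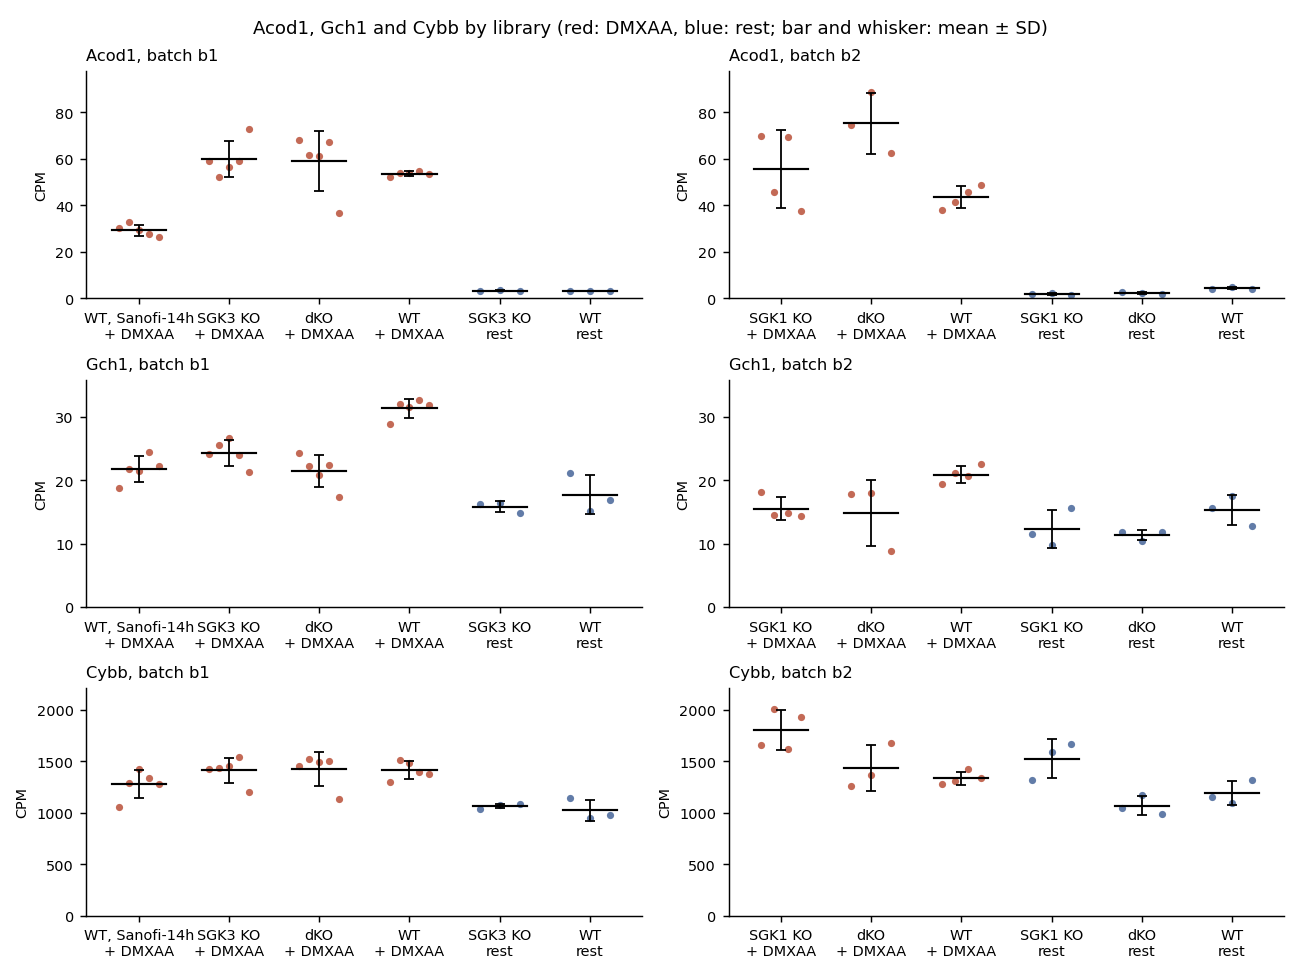
CPM of Acod1, Gch1 and Cybb in every library of b1 (left) and b2 (right), with stimulated groups in red, resting groups in blue, and bars and whiskers giving the mean ± SD. Acod1 separates all stimulated from all resting libraries in both batches; Gch1 with DMXAA is highest in WT, and all 5 Sanofi-14h libraries lie below WT with DMXAA alone for Acod1 and Gch1.

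Gch1 rose with DMXAA in b1 and was lower in every comparison with stimulated WT cells of that batch. It measured 24.1, 25.6, 26.7, 24.0 and 21.3 CPM in stimulated SGK3 KO, 24.3, 22.2, 20.9, 22.5 and 17.4 CPM in stimulated double KO, and 28.8, 32.0, 31.5, 32.6 and 31.8 CPM in stimulated WT. At rest it measured 16.3, 16.4 and 14.8 CPM in SGK3 KO and 21.1, 15.1 and 16.9 CPM in WT. All stimulated libraries of SGK3 KO and of WT lay above their own resting ones, and no edited library reached a stimulated WT one. The response was 0.62 ± 0.10 log2 units in SGK3 KO (adjusted p = 8.77e-06) and 0.83 ± 0.10 in WT (adjusted p = 3.84e-08), and the difference of the responses did not pass (-0.21 ± 0.14, adjusted p = 0.659). With DMXAA, Gch1 was lower than in WT by -0.36 ± 0.08 in SGK3 KO (adjusted p = 0.00124) and by -0.55 ± 0.08 in double KO (adjusted p = 4.79e-06).

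With Sanofi-14h before DMXAA, Gch1 stood at 18.8, 21.8, 21.4, 24.5 and 22.2 CPM, below all 5 WT libraries with DMXAA alone. The log2 fold change was -0.53 ± 0.08 (adjusted p = 1.79e-05). In b2 it was 18.2, 14.6, 14.8 and 14.4 CPM in stimulated SGK1 KO, 17.8, 18.0 and 8.83 CPM in stimulated double KO, and 19.4, 21.1, 20.6 and 22.5 CPM in stimulated WT. Both edited lines again lay below WT without overlap, at -0.43 ± 0.18 in SGK1 KO (adjusted p = 0.165) and -0.49 ± 0.20 in double KO (adjusted p = 0.128). These b2 differences did not pass, and without replicate 3 of the double KO, the library at 8.83 CPM, that value was -0.22. With both batches fitted together they passed in SGK1 KO (-0.45, adjusted p = 0.019) and in double KO (-0.51, adjusted p = 0.0127). With the groups fitted alone the SGK1 KO difference passed as well (-0.43, adjusted p = 0.0320). The DMXAA response of Gch1 in b2 did not pass in SGK1 KO (0.33 ± 0.20), in double KO (0.39 ± 0.21) or in WT (0.45 ± 0.20). Without replicate 3 of stimulated double KO, its response was 0.67 (adjusted p = 0.0285).

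Among the genes listed around tetrahydrobiopterin, Pts and Spr, the enzymes after Gch1 in the pathway, fell with DMXAA in WT of b1 by 0.31 ± 0.08 and 0.18 ± 0.06 on the log2 scale (adjusted p = 0.00261 and 0.0236). Gchfr, the feedback regulator of Gch1, was 0.983 ± 0.327 CPM in stimulated double KO and 2.46 ± 0.45 CPM in stimulated WT in b1 (SD, n = 5 each; -1.32 ± 0.25, adjusted p = 8.21e-05). With Sanofi-14h, Pts was higher by 0.32 ± 0.07 (adjusted p = 0.00119).

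Ptgs2 was lower in each edited line than in WT with DMXAA. In b1 it measured 1.64, 1.2, 1.81, 1.82 and 1.36 CPM in stimulated SGK3 KO, 3.00, 1.48, 2.26, 3.39 and 3.92 CPM in stimulated double KO, and 5.33, 7.12, 5.36, 5.99 and 4.98 CPM in stimulated WT. No edited library reached the lowest WT library. The log2 fold change was -1.88 ± 0.19 in SGK3 KO (adjusted p = 1.40e-09) and -1.03 ± 0.18 in double KO (adjusted p = 3.58e-05). In b2 it measured 2.62, 3.24, 1.57 and 1.28 CPM in stimulated SGK1 KO, 2.05, 1.75 and 3.03 CPM in stimulated double KO, and 6.83, 9.48, 5.69 and 6.95 CPM in stimulated WT. The groups were again apart, at -1.74 ± 0.29 in SGK1 KO (adjusted p = 4.00e-04) and -1.67 ± 0.32 in double KO (adjusted p = 0.00115).

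At rest, the lower Ptgs2 level was already present in SGK3 KO and in double KO. It measured 1.73, 1.77 and 1.47 CPM in resting SGK3 KO, against 3.96, 4.71 and 4.40 CPM in resting WT of b1 (-1.39 ± 0.24, adjusted p = 6.80e-05). In b2 it measured 3.79, 2.99 and 2.45 CPM in double KO, 5.18, 7.3 and 11 CPM in SGK1 KO, and 11.8, 11.3 and 11.8 CPM in WT. The double KO stood well apart from WT (-1.92 ± 0.33, adjusted p = 0.00117), whereas SGK1 KO spread widely and lay wholly below WT (-0.57 ± 0.32, adjusted p = 0.259). DMXAA lowered Ptgs2 in SGK1 KO by -1.85 ± 0.30 log2 units (adjusted p = 3.24e-04), with no overlap between stimulated and resting libraries.

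In WT the Ptgs2 change with DMXAA pointed in opposite directions in the 2 batches and passed in neither. It was 0.40 ± 0.21 in b1 (adjusted p = 0.138) and -0.69 ± 0.30 in b2 (adjusted p = 0.327), with all stimulated libraries above the resting ones in b1 and all below them in b2. When the WT groups were fitted alone, both passed (0.41, adjusted p = 0.0440, and -0.68, adjusted p = 0.0349). Resting WT cells held 11.6 ± 0.3 CPM in b2 and 4.36 ± 0.38 CPM in b1 (SD, n = 3 each), with no test between batches. The SGK1 KO and WT responses in b2 differed by -1.16 ± 0.43, which did not pass (adjusted p = 0.374). Sanofi-14h before DMXAA gave 2.65, 3.22, 3.55, 2.97 and 3.09 CPM, all below the 4.98 CPM of the lowest WT library with DMXAA alone (-0.89 ± 0.18, adjusted p = 4.08e-04). Ptges stayed between 0 and 1.57 CPM in all libraries and passed in no comparison.

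**Figure D3:**
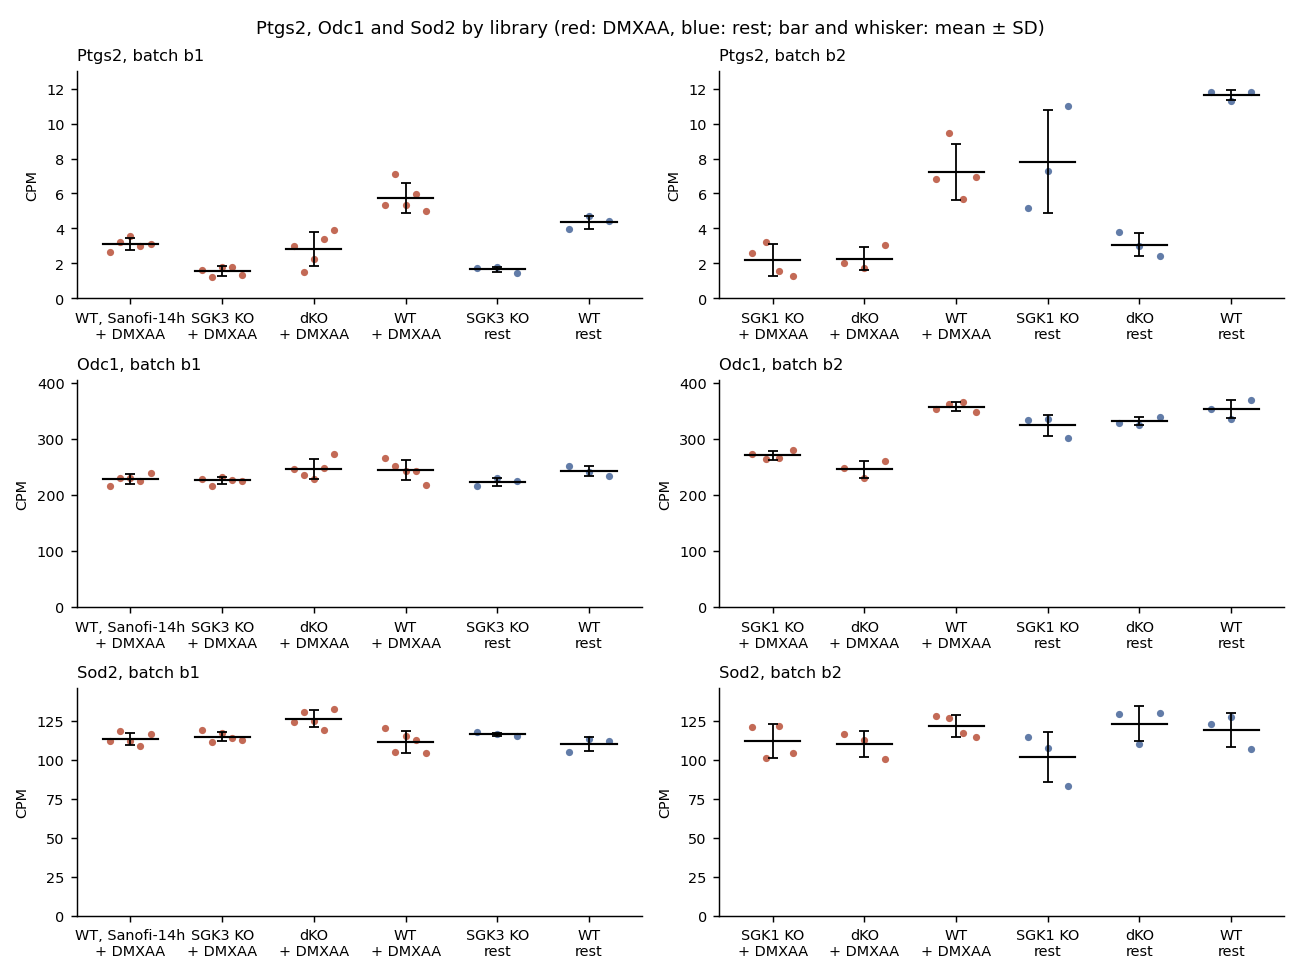
CPM of Ptgs2, Odc1 and Sod2 in every library of b1 (left) and b2 (right), with stimulated groups in red, resting groups in blue, and bars and whiskers giving the mean ± SD. Ptgs2 with DMXAA is lower in the edited lines and with Sanofi-14h than in WT; Odc1 is lower in stimulated SGK1 KO and double KO than in all other b2 groups.

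Around Ptgs2, 13 of 15 genes of prostaglandin and leukotriene metabolism were tested, and with DMXAA 4 were higher and 3 lower than WT in SGK3 KO (22.9% of all tested genes changed) and 4 higher and 3 lower in double KO of b1 (26.4%). In b2, 4 were higher and 1 lower in SGK1 KO (8.72%), and 4 higher and 2 lower in double KO (12.8%). Ptgs1, the constitutive cyclooxygenase, was higher in all 4 comparisons. It measured 6.38 ± 0.48 CPM in stimulated SGK3 KO and 4.46 ± 0.42 CPM in stimulated double KO, against 1.71 ± 0.50 CPM in stimulated WT (SD, n = 5 each; 1.89 ± 0.20, adjusted p = 7.29e-09, and 1.38 ± 0.20, adjusted p = 2.08e-06). In b2 it measured 26.3 ± 3.3 CPM in SGK1 KO (n = 4) and 7.38 ± 1.62 CPM in double KO (n = 3), against 1.22 ± 0.43 CPM in WT (n = 4), all with DMXAA (4.43 ± 0.23, adjusted p = 8.50e-11, and 2.6 ± 0.23, adjusted p = 7.74e-08). Ptgs1 was also higher at rest, by 1.86 ± 0.26 in SGK3 KO (adjusted p = 2.75e-06), 3.36 ± 0.26 in SGK1 KO (adjusted p = 5.94e-08) and 1.18 ± 0.24 in double KO (adjusted p = 0.00670).

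Hpgd, which inactivates prostaglandins, was lower than WT with DMXAA by -1.33 ± 0.08 in SGK3 KO and -1.48 ± 0.08 in double KO of b1 (adjusted p = 1.61e-14 and 8.80e-16). In b2 it was lower by -1.19 ± 0.07 in double KO (adjusted p = 3.92e-10) and higher by 0.35 ± 0.06 in SGK1 KO (adjusted p = 0.00115). The SGK1 KO value was chosen after it had been seen. At rest, Hpgd was lower than WT in all 3 edited lines. The change was -0.60 ± 0.07 in SGK1 KO (adjusted p = 3.70e-05), -1.65 ± 0.10 in SGK3 KO (adjusted p = 1.33e-13) and -1.99 ± 0.08 in double KO (adjusted p = 1.37e-12). Hpgds, which makes prostaglandin D2, was higher by 1.22 ± 0.08 in SGK1 KO and 1.32 ± 0.08 in double KO of b2 (adjusted p = 7.62e-10 and 4.26e-10). With Sanofi-14h, 4 genes of the list were higher and 1 lower (20.8% of all tested genes changed). Hpgd was among the higher ones, at 103 ± 9 CPM against 66.4 ± 2.3 CPM in WT without the inhibitor (SD, n = 5 each; 0.64 ± 0.07, adjusted p = 1.43e-07).

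Nos2 was at or near 0. It had 0 to 32 counts per library in b1, with 11 of 26 libraries at 0, and in b2 19 of 20 libraries had none and the other 8 counts. One read pair was taken as 4 counts and a limit of 3 pairs as 12 counts, or 0.107 to 0.207 CPM by library, and 1 library, replicate 2 of WT with DMXAA in b1, exceeded it. All 3 resting SGK3 KO libraries had 0 counts. Arg1 had 0 to 31 counts in b1 and 0 to 103 in b2, with 5 and 6 libraries at 0. Neither gene passed in any comparison in which it was tested, and Arg1 passed without replicate 3 of stimulated SGK3 KO, when SGK3 KO and WT with DMXAA were compared (-2.96, adjusted p = 0.0456).

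Ass1 was low, at 1.29 to 5.11 CPM in all libraries of both batches, and passed in 1 comparison. With Sanofi-14h before DMXAA it measured 1.64, 2.28, 3.05, 3.54 and 2.74 CPM, against 3.68, 3.97, 3.72, 4.55 and 3.21 CPM in WT with DMXAA alone. The groups overlapped, at -0.53 ± 0.18 (adjusted p = 0.0339). Leaving out replicate 1 or 2 with the inhibitor, or replicate 2, 3 or 4 without it, ended the call (adjusted p = 0.0513 to 0.113). In b2, resting SGK1 KO lay above resting WT without overlap (3.72 ± 0.45 CPM against 2.15 ± 0.67 CPM, SD, n = 3 each), and this did not pass (0.79 ± 0.36, adjusted p = 0.167).

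Odc1 was lower in the stimulated edited lines of b2. It measured 272, 264, 265 and 281 CPM in SGK1 KO, 248, 229 and 259 CPM in double KO, and 353, 362, 365 and 348 CPM in WT, all with DMXAA. The edited lines lay wholly below WT, by -0.40 ± 0.06 in SGK1 KO (adjusted p = 8.09e-05) and -0.54 ± 0.06 in double KO (adjusted p = 4.55e-06). At rest it measured 334, 336 and 302 CPM in SGK1 KO, 329, 325 and 339 CPM in double KO, and 353, 336 and 368 CPM in WT, which did not pass in either line. With DMXAA, Odc1 fell by 0.26 ± 0.06 on the log2 scale in SGK1 KO (adjusted p = 0.00927) and by 0.43 ± 0.07 in double KO (adjusted p = 2.38e-04), against a change of 0.02 ± 0.06 in WT. The call in SGK1 KO ended without replicate 2 at rest (adjusted p = 0.0891). Both calls ended with the groups fitted alone (adjusted p = 0.114 in SGK1 KO and 0.0501 in double KO) and with b3 added without a batch term, where the changes were -0.23 (adjusted p = 0.118) and -0.25 (adjusted p = 0.182).

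The test of a different Odc1 response passed for double KO (-0.45 ± 0.09, adjusted p = 0.0224) and did not for SGK1 KO (-0.28 ± 0.09, adjusted p = 0.260). The double KO call ended with the b3 libraries added (-0.27), with a batch term for them (-0.39, adjusted p = 0.112), and on leaving out any of 6 libraries, namely replicate 2 with DMXAA and replicates 1 and 3 at rest of double KO and replicates 1 and 2 at rest and 2 with DMXAA of WT (adjusted p = 0.0530 to 0.0855). In b1, stimulated double KO held 228 to 273 CPM against 217 to 266 CPM in stimulated WT, a difference of 0.01 ± 0.05. In SGK3 KO and with Sanofi-14h the differences from the same WT libraries were -0.11 ± 0.05 and -0.10 ± 0.05 and did not pass, but did without replicate 5 of that WT group (adjusted p = 0.0157 and 0.0317). Odc1 shares sequence with the processed pseudogene Gm7993 (95.7% identity over 1388 bases), whose counts were 16.2 to 22.5% of those of Odc1. Adding them gave -0.40 in SGK1 KO and -0.56 in double KO with DMXAA.

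Of 17 genes of arginine and polyamine metabolism, 16 were tested. DMXAA in b1 raised 5 and lowered 3 in SGK3 KO (30.1% of all tested genes changed), and raised 5 and lowered 1 in WT (35.3%). The share was near that of all genes in WT and above it in SGK3 KO. In b2 DMXAA raised 2 in SGK1 KO (11.2%) and changed none in double KO (6.76%) or WT (3.98%). Sat1, which acetylates polyamines for export or breakdown, rose by 0.59 ± 0.08 in SGK3 KO (adjusted p = 2.16e-06) and 0.57 ± 0.08 in WT (adjusted p = 2.58e-06), and the arginine transporter Slc7a1 rose by 0.43 ± 0.07 in SGK3 KO and 0.35 ± 0.07 in WT. With Sanofi-14h, Slc7a1 was 259 ± 27 CPM against 355 ± 38 CPM without it (SD, n = 5 each; -0.46 ± 0.06, adjusted p = 2.29e-06). In b2 with DMXAA, 2 genes were lower and none higher than WT in SGK1 KO, and 3 lower and none higher in double KO. Of all 16622 tested genes, 8.72% changed in either direction in SGK1 KO (676 lower) and 12.8% in double KO (1066 lower). Oat, which interconverts ornithine and pyrroline carboxylate, was lower in both (-0.25 ± 0.07, adjusted p = 0.0219, and -0.35 ± 0.07, adjusted p = 0.00215), as was the spermine synthase Sms in SGK1 KO (-0.31 ± 0.07, adjusted p = 0.00509) and the spermidine synthase Srm in double KO (-0.59 ± 0.15, adjusted p = 0.0101).

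Cybb rose with DMXAA in b1. It measured 1421, 1430, 1449, 1544 and 1205 CPM in stimulated SGK3 KO against 1039, 1074 and 1083 CPM at rest, and 1299, 1511, 1480, 1392 and 1376 CPM in stimulated WT against 1142, 947 and 980.4 CPM at rest. No stimulated library of either genotype fell among its resting ones. The change was 0.40 ± 0.09 in SGK3 KO (adjusted p = 0.00120) and 0.46 ± 0.09 in WT (adjusted p = 2.10e-04). Stimulated double KO held 1131 to 1523 CPM and pretreatment with Sanofi-14h gave 1055 to 1426 CPM, and neither differed from stimulated WT (0.01 ± 0.08 and -0.14 ± 0.08) beyond the threshold.

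In b2, Cybb measured 1655, 2008, 1614 and 1926 CPM in stimulated SGK1 KO, 1255, 1366 and 1680 CPM in stimulated double KO, and 1277, 1306, 1422 and 1333 CPM in stimulated WT. SGK1 KO lay above WT throughout (0.43 ± 0.10, adjusted p = 0.00826), while double KO overlapped it (0.10 ± 0.11, adjusted p = 0.646). The highest 2 SGK1 KO values came from libraries whose counts rose with gene length, and Cybb is longer than the median gene by 0.98 log2 units. Without such libraries the difference was 0.29 (adjusted p = 0.0196), and with the length trend removed it was 0.29 (adjusted p = 2.58e-04). It lost its call with the b3 libraries added (0.33, adjusted p = 0.281). DMXAA raised Cybb in double KO by 0.42 ± 0.12 (adjusted p = 0.0305), a call that ended without replicate 3 with DMXAA or without replicate 1 or 3 at rest (adjusted p = 0.160, 0.101 and 0.136). That call also ended with the groups fitted alone, with limma and with b3 added without a batch term (adjusted p = 0.143, 0.183 and 0.51). The response was 0.24 ± 0.11 in SGK1 KO (adjusted p = 0.171) and 0.17 ± 0.11 in WT (adjusted p = 0.666). With the length trend removed, the SGK1 KO and WT responses were 0.33 and 0.19 and passed (adjusted p = 1.07e-04 and 0.0413).

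At rest, Cybb in SGK1 KO was 1525 ± 187 CPM against 1189 ± 115 CPM in WT (SD, n = 3 each; 0.36 ± 0.12, adjusted p = 0.0661), and passed without replicate 1 of SGK1 KO or replicate 3 of WT (adjusted p = 0.0140 and 0.0475). Without replicate 1, the resting SGK1 KO group held only libraries whose counts rose with gene length. Over all alternatives the difference lay between 0.14 and 0.55.

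All 8 other listed genes of the NADPH oxidase were tested. Where Cybb rose with DMXAA in b1, none of the 8 rose, and 4 fell in SGK3 KO and 3 in WT (30.1% and 35.3% of all tested genes changed). In b2 none of the 8 fell with DMXAA in any genotype, and 1 rose in SGK1 KO (11.2%, with 6.76% in double KO and 3.98% in WT). Ncf1, the cytosolic organizer subunit, fell to 434 ± 14 CPM in stimulated SGK3 KO, against 544 ± 22 CPM at rest, and to 468 ± 7 CPM in stimulated WT, against 600 ± 27 CPM at rest (SD; n = 5 stimulated and 3 resting; -0.33 ± 0.04, adjusted p = 1.87e-07, and -0.36 ± 0.04, adjusted p = 2.02e-08). Compared with WT under DMXAA, 4 were higher and 2 lower in SGK3 KO and 4 were higher in double KO of b1 (22.9% and 26.4%). In b2, 1 was higher in SGK1 KO and none differed in double KO (8.72% and 12.8%). The 4 higher in b1 included Ncf4 in both lines (0.23 ± 0.05 and 0.30 ± 0.05) and Hvcn1, the voltage-gated proton channel, which was at 0.897 ± 0.422 CPM in SGK3 KO and 1.09 ± 0.55 CPM in double KO, against 0.0889 ± 0.0718 CPM in WT.

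Sod2 kept a narrow range and changed in 1 comparison. In b1 with DMXAA it measured 124, 131, 125, 119 and 133 CPM in double KO and 120.4, 105, 115, 113 and 104 CPM in WT. The groups overlapped by 1 library, and the difference was 0.18 ± 0.04 (adjusted p = 0.00116), a call that ended with both batches fitted together (0.17, adjusted p = 0.0811). In b2 the same contrast was -0.15 ± 0.11 (adjusted p = 0.457). Its response to DMXAA lay between -0.16 and 0.14 log2 units in the 5 genotype and batch combinations, and none passed. Of 12 tested genes that remove superoxide and peroxide, 4 were higher and none lower in stimulated double KO than in stimulated WT of b1. Of all 16947 tested genes, 26.4% changed in either direction (2457 higher and 2011 lower). Changes in the list were 0.20 ± 0.07 for Gpx4, 0.19 ± 0.04 for Prdx2 and 0.18 ± 0.05 for Txn1. In b2, 1 was higher and 1 lower in stimulated double KO (12.8%), Txnrd1 at 0.26 ± 0.08 and Gpx1 at -0.84 ± 0.20. In stimulated SGK1 KO none was higher and 2 were lower (8.72%), Gpx1 at -0.74 ± 0.18 and Sod1 at -0.73 ± 0.22. Of 16 genes of citrate and succinate metabolism, DMXAA in b1 raised none and lowered 6 in SGK3 KO and 4 in WT. Acod1 draws its substrate from this pathway. Of all 16947 tested genes, 30.1% changed in either direction in SGK3 KO (2324 lowered) and 35.3% in WT (2957 lowered). In b2 DMXAA lowered 1 gene of the list in SGK1 KO (11.2%) and none in double KO (6.76%) or WT (3.98%). Those lowered in b1 included the citrate carrier Slc25a1, at -0.41 ± 0.06 in SGK3 KO (adjusted p = 4.47e-07) and -0.27 ± 0.06 in WT (adjusted p = 2.26e-04).

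**Figure D4:**
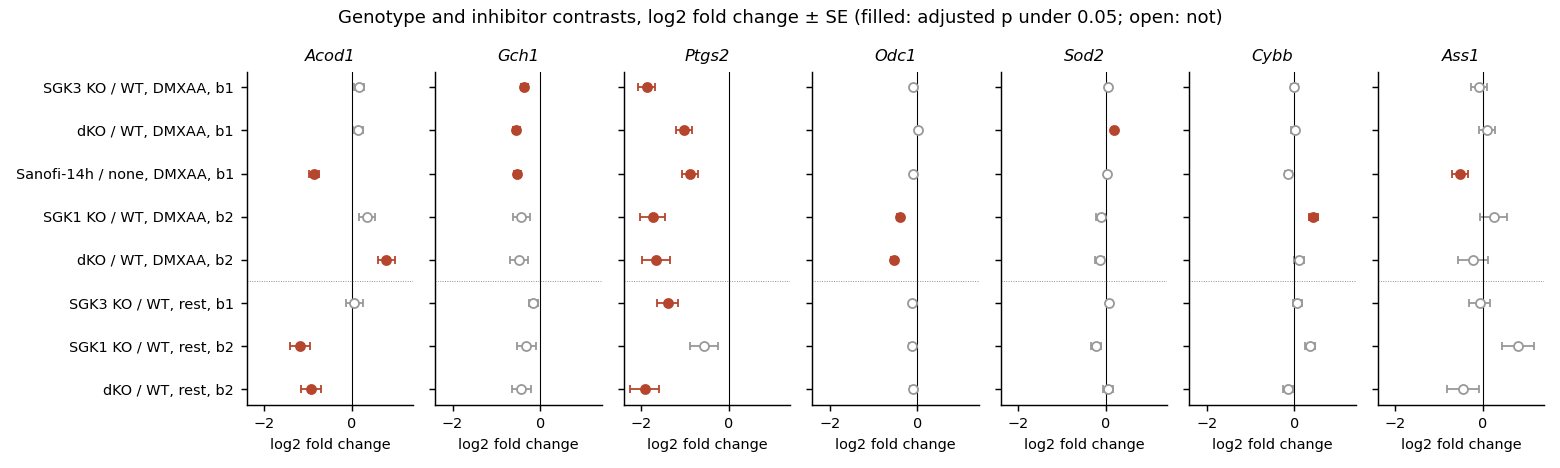
Log2 fold changes ± SE of 7 of the genes (panels) in 8 contrasts (rows), each edited line or Sanofi-14h over WT in the same state and batch, with filled points where the adjusted p was under 0.05. Ptgs2 is filled and below 0 in all 5 contrasts with DMXAA; Gch1 is filled in the 3 from b1; Odc1 is filled in the 2 from b2.

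Across the 46 libraries of b1 and b2, with each batch centred, Acod1 followed most closely Peli1, Slc25a25 and Bbc3 (Pearson r = 0.974, 0.972 and 0.971 on log2 CPM). Gch1 was most like Ifit3b (r = 0.898), Trafd1 and Tor3a. Ptgs2 was most like Ddx24 (0.877) and Mov10, and Cybb most like Slc39a6 (0.927), Ankrd11 and Mgat4a. The gene most like Odc1 was its pseudogene Gm7993 (0.898), that most like Sod2 was Arpc1b (0.896), and that most like Ass1 was Slc7a1 (0.741). Among the 10 genes themselves the closest pairs were Ass1 with Cybb (0.71), Ptgs2 with Odc1 (0.68) and Acod1 with Gch1 (0.62). These values describe libraries that share group, batch and depth, and carry no test.

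On GRCm39, the build of the deposited tables, the 10 protein-coding genes lie apart from each other. Acod1 lies at chr14:103284413-103294009 and Gch1 at chr14:47391352-47426870. Ptgs2 lies at chr1:149975782-149983978, Odc1 at chr12:17594795-17601506, Cybb at chrX:9301491-9354010 and Sod2 at chr17:13225733-13258950. Nos2 lies at chr11:78811613-78851080, Arg1 at chr10:24791119-24803382, Ass1 at chr2:31360219-31410684 and Ptges at chr2:30779483-30819875. Gch1, Ptges and Odc1 overlap small pseudogenes or a snoRNA, none of which exceeded 0.323 CPM in any library. Ass1 shares 99.5% of 1240 bases with the pseudogene Gm5424, which had 0 to 19 counts.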

How the data were processed

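RNA was sequenced from 50 poly-A selected libraries. The deposited estimated counts per gene and the deposited TPM were made by the authors on GRCm39. The submitters' processing notes name STAR 2.7.9a and StringTie 2.2.0, and how reads were counted is not given in the sources used here. Counts were rounded. Batches b1 (26 libraries) and b2 (20) were fitted apart in edgeR 4.0.16 (R 4.3.3), with filterByExpr, TMM, 1 coefficient per group and robust quasi-likelihood F tests. P-values were adjusted by Benjamini-Hochberg over all tested genes, with a threshold of 0.05. Values are CPM as mean ± SD and log2 fold changes ± SE. Batch b3 (4 reruns) was kept apart, since it held 1 library whose title and treatment field disagree and at most 2 libraries of a group.

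Among protein-coding values of 1 to 16, 17.5% were 4, so a read pair was taken as 4 counts for limits, which cover counting error only and are void if that unit is wrong. The 70 replicate pairs held no identical libraries (Spearman 0.967 to 0.990). Alternatives were DESeq2 1.42.0, limma 3.58.1 on log2(TPM + 1), no filter, the groups compared alone, both batches together, a gene length offset, a replicate block, b3 libraries added, left-out libraries and, added after seeing the data, pseudogene counts and a batch term for b3. On simulated counts, the test recovered 75% of genes changed by 0.5 log2 units and 91% of those changed by 1 for SGK3 KO with DMXAA, with 14 false calls among 16528 genes. For SGK1 KO with DMXAA it recovered 30% and 73%, with 0 false calls among 15903. The simulated counts carried no gene length trend, and the changed genes all had a mean over 1 CPM. These figures therefore do not cover the length trend of b2 or genes of lower counts.

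The enzyme genes, pathway lists and marker lists were chosen with earlier results of these data known. Named in the text are all 10 genes, up to 3 called genes with the largest change per list and comparison, and up to 3 of the most alike genes of each. Some items that these rules name are not reported here. Motifs were searched in RefSeq promoters.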

Additional observations from a re-analysis of the deposited data

Results flagged for a closer look

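Each pair of an enzyme gene and a group of 4 or 5 libraries was tested for a library far from the others. Of 59 such pairs 5 were picked out, and chance picks out about 1 in 20. The pairs share libraries, so they are not independent. Replicate 5 of double KO with DMXAA in b1 stood low for Acod1 (36.7 CPM, the others 61.3 to 68.1) and for Cybb (1131 CPM, the others 1454 to 1523). Replicate 2 of that group stood low for Arg1, at 0.0780 CPM. Replicate 1 of SGK1 KO with DMXAA in b2 stood high for Gch1, at 18.2 CPM with the others at 14.4 to 14.8. Replicate 4 of WT with DMXAA in b2 had the only Nos2 counts of that batch, at 0.104 CPM.

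The DMXAA response differed between genotypes of b2 in 3 tests. The Acod1 response exceeded that of WT by 1.54 log2 units in SGK1 KO and by 1.72 in double KO. The Odc1 response was -0.45 log2 units relative to WT in double KO.

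In the 4 reruns of b3, scaled together with b2, Acod1 stood at 42.1 CPM in the library labelled SGK1 KO with DMXAA and at 48.9 and 32.4 CPM in those labelled double KO with DMXAA. It stood at 44.3 CPM in the library whose title says no treatment and whose treatment field says DMXAA. The highest resting WT library of b2 had 4.70 CPM on that scale. The library with disagreeing labels also held Tnf at 424 CPM and Sgk1 at 25.3 CPM. Resting WT libraries of b2 held at most 45.2 and 2.97 CPM of these genes. Its levels thus went with its treatment field and not with its title, although this was not tested.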

How the results depend on the processing

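Of 35 calls on the enzyme genes, 23 held in every alternative run, 12 were lost in at least 1, and none reversed. Of 116 values not called, 19 were called in at least 1. The number of enzyme genes called moved by more than 1.5 times as follows, the cause not being tested beyond what each setting changes. With the groups compared alone it was 5 for the WT response in b1 (from 3) and 2 for that in b2 (from 1), 1 for the double KO response (from 3), 0 for SGK1 KO at rest (from 1) and 1 for double KO at rest (from 2). With the length trend removed, or without the libraries of steep length trend, it was 2 for the WT response in b2. DESeq2 gave 2 for the SGK1 KO minus WT response and 2 for SGK1 KO at rest. Limma gave 0 and 1 for the different responses of SGK1 KO and double KO (from 1 and 2), 2 for SGK1 KO at rest and 1 for double KO at rest. Both batches together gave 2 for the different SGK1 KO response and 4 for SGK1 KO at rest. Adding b3 gave 0 for both different responses, 1 for the double KO response and 1 for double KO at rest, and with a batch term 1 for the different double KO response. Smaller moves, of 1 gene each, came with both batches together (2 for double KO with DMXAA in b1, 3 for Sanofi-14h, 4 for SGK1 KO and for double KO with DMXAA in b2), the groups alone (3 for Sanofi-14h, 2 for the SGK1 KO response, 4 for SGK1 KO with DMXAA) and DESeq2 (3 for SGK3 KO with DMXAA). They also came with the length trend removed (4 for the WT response in b1, 3 for SGK3 KO with DMXAA, 5 for Sanofi-14h, 4 for the SGK1 KO response, 3 for double KO at rest), limma (2 for the double KO response), without steep libraries (4 for the double KO response and for SGK1 KO with DMXAA) and b3 added without a batch term (2 for the SGK1 KO response and for SGK1 KO and double KO with DMXAA in b2).

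Leaving out 1 library gave 3 to 3 for the responses of SGK3 KO and WT in b1, 0 to 0 for their difference, 1 to 1 for SGK3 KO at rest, and with DMXAA 2 to 3 for SGK3 KO, 3 to 4 for double KO in b1 and 3 to 5 for Sanofi-14h. In b2 it gave 2 to 3 for the SGK1 KO and double KO responses, 1 to 1 for WT, 0 to 1 and 1 to 2 for the different responses, 1 to 2 for SGK1 KO and double KO at rest, and with DMXAA 3 to 3 for SGK1 KO and 2 to 3 for double KO. Where 2 libraries of a group were left, the spread came from all groups of the batch.

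Counts over all genes moved by more than 1.5 times as follows. Both batches together gave 3870 for the WT response in b1 (5989 when fitted apart), 3029 for SGK3 KO (5100), 35 for their difference (176), 883 for SGK3 KO at rest (1768), and with DMXAA 1982 for SGK3 KO (3883), 2446 for double KO (4468) and 1558 for Sanofi-14h (3520). In b2 it gave 4410 for the SGK1 KO response (1856), 2555 for double KO (1124), 1428 for WT (662), 519 and 544 for the different responses of SGK1 KO and double KO (75 and 130), 4732 and 1147 for SGK1 KO and double KO at rest (1069 and 503), and 3815 and 3961 with DMXAA (1450 and 2134). DESeq2 gave 341 for the different SGK3 KO response, 287 and 363 for those of SGK1 KO and double KO, and 2619 and 798 for SGK1 KO and double KO at rest. Limma gave 46 and 50 for the different SGK1 KO and double KO responses. With the groups alone the responses held 763 in SGK1 KO, 475 in double KO and 1014 in WT, and SGK1 KO at rest 248. With the length trend removed the counts were 1866 and 1120 for the double KO and WT responses, 235 and 362 for the different responses, and 795 for double KO at rest. Without steep libraries they were 900 and 1249 for the SGK1 KO and WT responses, 213 for the different double KO response and 279 for SGK1 KO at rest. Adding b3 gave 660 for the double KO response, 2 and 1 for the different responses, 367 for SGK1 KO at rest, and 634 and 1284 for SGK1 KO and double KO with DMXAA. Leaving out a library took SGK1 KO at rest to between 270 and 3202 and the different SGK1 KO response to between 36 and 118. The lowest counts on leaving out a library were 85 for the different SGK3 KO response, 61 for that of double KO, 1124, 697 and 406 for the responses of SGK1 KO, double KO and WT in b2, 949 for SGK1 KO with DMXAA and 322 for double KO at rest.

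Replicate numbers in b1 did not pair the libraries (57 same-number pairs, median r = 0.0196, 10 over 0.1; 7 of 26 libraries correlated best with their own number). With the replicate block the counts of enzyme genes stayed at 3 and 3 for the responses of SGK3 KO and WT, 0 for their difference, 1 for SGK3 KO at rest, and with DMXAA 2 for SGK3 KO, 3 for double KO and 4 for Sanofi-14h. In b2 no paired analysis was possible because its labels carry letters.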

Other observations

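The b3 reruns, scaled together with b2, gave further values of the enzyme genes. Odc1 stood at 304 and 345 CPM in the libraries labelled double KO with DMXAA, above the 230.5 to 264 CPM of that group in b2. Cybb stood at 1132 and 915 CPM in those libraries, below the 1258 to 1708 CPM of b2. Ptgs2 stood at 3.19 and 2.26 CPM, beside 1.76 to 3.08 CPM in b2. In the library labelled SGK1 KO with DMXAA, Cybb was 1184 CPM, against 1622 to 2035 CPM in b2, and Odc1 was 285 CPM, against 266 to 282 CPM. The rerun titled WT, whose title and treatment field disagree, held Odc1 at 326 CPM, between the double KO reruns and above SGK1 KO. Its Cybb was 1173 CPM, beside that of SGK1 KO and above double KO. Within b3, the lower Odc1 of double KO and the higher Cybb of SGK1 KO were therefore not seen. Ptgs2 in that WT rerun was 6.87 CPM, above the edited reruns, where SGK1 KO held 3.26 CPM. These differences within b3 were not tested.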
